A study of Rattus norvegicus with 54 samples.

Results

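Keratins are the proteins of the intermediate filaments of epithelial cells, and each filament pairs an acidic type I with a neutral to basic type II chain. Simple epithelia such as those of liver and gut use Krt8 with Krt18, the basal layer of the epidermis uses Krt14, the differentiating layers above it use Krt1 with Krt10, and the hair follicle has separate sets for its inner root sheath and for the hair shaft. Hepatocytes hold Krt8 and Krt18, bile duct cells hold Krt7 and Krt19 as well, and the main intermediate filament protein of muscle fibres is desmin.

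The keratin genes were all probe sets with a single gene symbol that begins with Krt followed by a digit. This gave 47 probe sets of 44 genes, among 15310 probe sets of 14506 genes with 1 symbol and 29214 probe sets in all. All 47 entered the tests, since no filter on low values was used. By type, 26 of the genes are type I and 17 type II, and Krt90 is assigned to neither here. By role they comprise 7 simple epithelial genes (Krt7, Krt8, Krt18, Krt19, Krt20, Krt23, Krt80), 2 basal (Krt14, Krt15), 5 cornifying (Krt1, Krt2, Krt9, Krt10, Krt77), 5 of mucosa or cornea (Krt4, Krt12, Krt13, Krt24, Krt76), 3 of activated or appendage keratinocytes (Krt16, Krt17, Krt42), 6 of the inner root sheath (Krt25, Krt26, Krt27, Krt28, Krt72, Krt73), 15 of hair and nail, and Krt90. Some of these roles are best known from human and mouse. Another 2 probe sets carry several keratin symbols, among them Krt5, the basal partner of Krt14, and were left out. Krt18 has 3 probe sets and Krt8 has 2, and such a gene is described by its brightest probe set. The reference lists 7 Krt18 pseudogenes or Krt18-like genes, so that Krt18 levels are uncertain.

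The study took skeletal muscle of the hind limb and liver from untreated rats of the Wistar strain and hybridised their RNA to GeneChip Rat Gene ST arrays. Muscle was taken from foetuses at F16, F18, F20 and F22 and from pups at P1 and P4 (5 arrays each), where F counts days of gestation and P days after birth. Liver was taken from foetuses at F16, F20 and F22, from pups at P1 and P4 and from adults at P90 (4 arrays each). The labels name the samples of a group biological replicates, and neither a shared litter nor pooling of animals is stated or denied, so that p-values measure the spread between these samples.

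Values are log2 levels after robust multi-array average (RMA), on which a difference of 1 is a 2-fold change. Array medians lay between 7.98 and 8.07 in muscle and between 7.06 and 7.16 in liver, and each array had a mean correlation of 0.987 to 0.996 in muscle and of 0.985 to 0.996 in liver with the others of its group. Muscle markers were bright in muscle: the mean of 9 of them spanned 12.69 to 12.87 at P4 and 10.18 to 10.95 at F16. Hepatocyte markers were bright in liver, where the mean of 12 spanned 13.05 to 13.07 at P90 and 10.38 to 10.53 at F16. Muscle arrays also carried variable hepatocyte transcripts, with Alb between 7.02 and 12.21 at F16, and liver arrays carried variable muscle transcripts, with Acta1 at 11.85, 8.20, 8.34 and 10.12 at F22. Each tissue was normalised on its own, and levels are not compared between tissues. In bulk tissue, fewer cells of a type and less RNA per cell cannot be told apart.

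The genes lie in a pair of clusters. Of the type I genes 25 lie on chromosome 10, Krt10 among them, and the 17 type II genes lie on chromosome 7, Krt1 among them, where the type I gene Krt18 lies too. A promoter, from 250 bases before to 50 after the transcript start, was found for 32 of the 44 genes in RefSeq (rat build GRCr8). The 8 printed here belong to members on which the results turn: Krt10, Krt77 and Krt4 of the foetal rise in muscle, Krt25, Krt73, Krt31 and Krt85 of the rise at P4, and Krt8 of liver. Capitals mark 4 searched motifs, TATAAA on the gene's own strand and TGANTCA (AP-1), GCCNNNGGC (AP-2) and CTTTGA (LEF/TCF) on both strands, and the marked matches do not overlap.
Krt10 (chr10:84839111-84839410, minus strand): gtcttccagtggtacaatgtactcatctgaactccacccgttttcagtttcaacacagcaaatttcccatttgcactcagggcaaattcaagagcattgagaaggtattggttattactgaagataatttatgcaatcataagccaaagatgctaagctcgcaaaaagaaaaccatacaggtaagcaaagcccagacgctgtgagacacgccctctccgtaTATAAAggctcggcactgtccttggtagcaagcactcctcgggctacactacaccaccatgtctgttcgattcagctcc
Krt77 (chr7:134880727-134881026, minus strand): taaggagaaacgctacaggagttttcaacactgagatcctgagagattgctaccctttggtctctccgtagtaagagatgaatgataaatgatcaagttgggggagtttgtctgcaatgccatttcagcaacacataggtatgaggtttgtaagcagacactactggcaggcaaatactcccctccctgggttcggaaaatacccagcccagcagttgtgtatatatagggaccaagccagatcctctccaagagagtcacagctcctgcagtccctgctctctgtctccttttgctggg
Krt4 (chr7:134930664-134930963, minus strand): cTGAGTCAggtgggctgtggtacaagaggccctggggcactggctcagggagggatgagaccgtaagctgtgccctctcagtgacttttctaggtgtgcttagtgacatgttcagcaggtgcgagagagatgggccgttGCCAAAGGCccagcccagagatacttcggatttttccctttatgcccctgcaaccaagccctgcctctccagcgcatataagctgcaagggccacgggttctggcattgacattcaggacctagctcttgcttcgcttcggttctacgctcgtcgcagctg
Krt25 (chr10:84771148-84771447, minus strand): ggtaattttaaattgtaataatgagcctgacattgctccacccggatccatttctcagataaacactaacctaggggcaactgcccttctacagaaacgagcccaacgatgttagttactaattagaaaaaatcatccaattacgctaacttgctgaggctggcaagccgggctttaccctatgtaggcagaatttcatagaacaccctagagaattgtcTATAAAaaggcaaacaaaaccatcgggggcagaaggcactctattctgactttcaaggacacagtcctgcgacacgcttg
Krt73 (chr7:134814979-134815278, minus strand): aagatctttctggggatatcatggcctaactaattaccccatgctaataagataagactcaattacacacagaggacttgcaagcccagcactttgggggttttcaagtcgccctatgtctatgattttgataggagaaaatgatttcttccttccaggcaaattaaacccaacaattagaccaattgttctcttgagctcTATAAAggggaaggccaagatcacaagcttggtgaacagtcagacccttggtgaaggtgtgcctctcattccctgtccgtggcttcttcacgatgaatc
Krt31 (chr10:85483251-85483550, minus strand): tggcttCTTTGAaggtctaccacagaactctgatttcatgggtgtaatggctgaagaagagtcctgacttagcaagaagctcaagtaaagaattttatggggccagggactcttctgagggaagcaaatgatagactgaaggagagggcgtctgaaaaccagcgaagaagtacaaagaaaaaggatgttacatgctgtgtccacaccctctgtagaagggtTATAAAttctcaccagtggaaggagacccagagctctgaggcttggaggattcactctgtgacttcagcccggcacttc
Krt85 (chr7:134515737-134516036, minus strand): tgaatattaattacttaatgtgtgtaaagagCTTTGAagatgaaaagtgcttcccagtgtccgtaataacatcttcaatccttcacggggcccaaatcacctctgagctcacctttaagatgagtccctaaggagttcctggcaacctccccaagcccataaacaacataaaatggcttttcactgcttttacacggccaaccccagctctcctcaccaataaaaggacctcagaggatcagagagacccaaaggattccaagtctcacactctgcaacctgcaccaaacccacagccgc
Krt8 (chr7:135010290-135010589, minus strand): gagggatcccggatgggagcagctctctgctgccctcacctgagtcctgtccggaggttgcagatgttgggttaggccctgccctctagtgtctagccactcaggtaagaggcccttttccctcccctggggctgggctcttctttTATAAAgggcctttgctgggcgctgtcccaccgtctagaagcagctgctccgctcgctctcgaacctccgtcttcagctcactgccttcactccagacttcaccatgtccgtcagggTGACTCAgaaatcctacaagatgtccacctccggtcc

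TATAAA stood in 18 of the 32 keratin promoters, against 8.8% of all 33469 promoters of this length, and in 5 of 6 root sheath and 7 of 12 hair promoters. Its first base lay at position -29 in Krt10, -30 in Krt25, -29 in Krt31, -49 in Krt73 and -104 in Krt8, counted from the transcript start. CTTTGA stood in 12 of 32, against 16.1% of all promoters, and 7 of these 12 were among the 12 hair promoters, Krt31 and Krt85 included. TGANTCA stood in 2 (7.33% of all) and GCCNNNGGC in 5 (15.1% of all), and Krt4 held both. Krt77 held none of the 4 motifs in this window. A match describes the letters only.

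In muscle, the 3 brightest keratins were epidermal: Krt10, Krt1 and Krt14 had mean levels above 98.5%, 98.0% and 95.8% of all probe sets. They were already clearly measured at F16 and stood higher from F18 onward. Krt77 and Krt4 were high at F18 and F20 alone, and the keratins of the inner root sheath and most of those of hair had their highest means at P4. Levels changed between the 6 time points in 42 of the 47 probe sets (limma's moderated F-test, Benjamini-Hochberg adjusted p of at most 0.05), against 75.0% of all probe sets tested. The 5 that did not pass were Krt20, Krt42, Krt76, Krt90 and 1 of the dimmer Krt18 probe sets.

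Step by step, 13 keratin probe sets rose and 2 fell between F16 and F18, against 14.1% and 19.3% of all probe sets, with a median keratin change of 0.17 against -0.03 over all. Between F18 and F20, 9 rose and 5 fell (14.6% and 15.9% of all). Between F20 and F22, 3 rose and 6 fell (6.02% and 13.8% of all). Around birth changes were few: from F22 to P1, 5 rose and 1 fell (9.50% and 8.82% of all). Between P1 and P4, 20 rose and 7 fell, against 19.2% and 14.7% of all. Over the whole span from F16 to P4, 26 rose and 5 fell, against 26.7% and 35.0% of all, and the median change was 0.32 for keratins and -0.04 over all. The share of keratins that rose was close to that of all probe sets at F22 and P1, and above it at F18 and P4. The plot of group means by role shows these blocks, and P4 against F16 uses the same P4 arrays as P4 against P1.

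**Figure D1:**
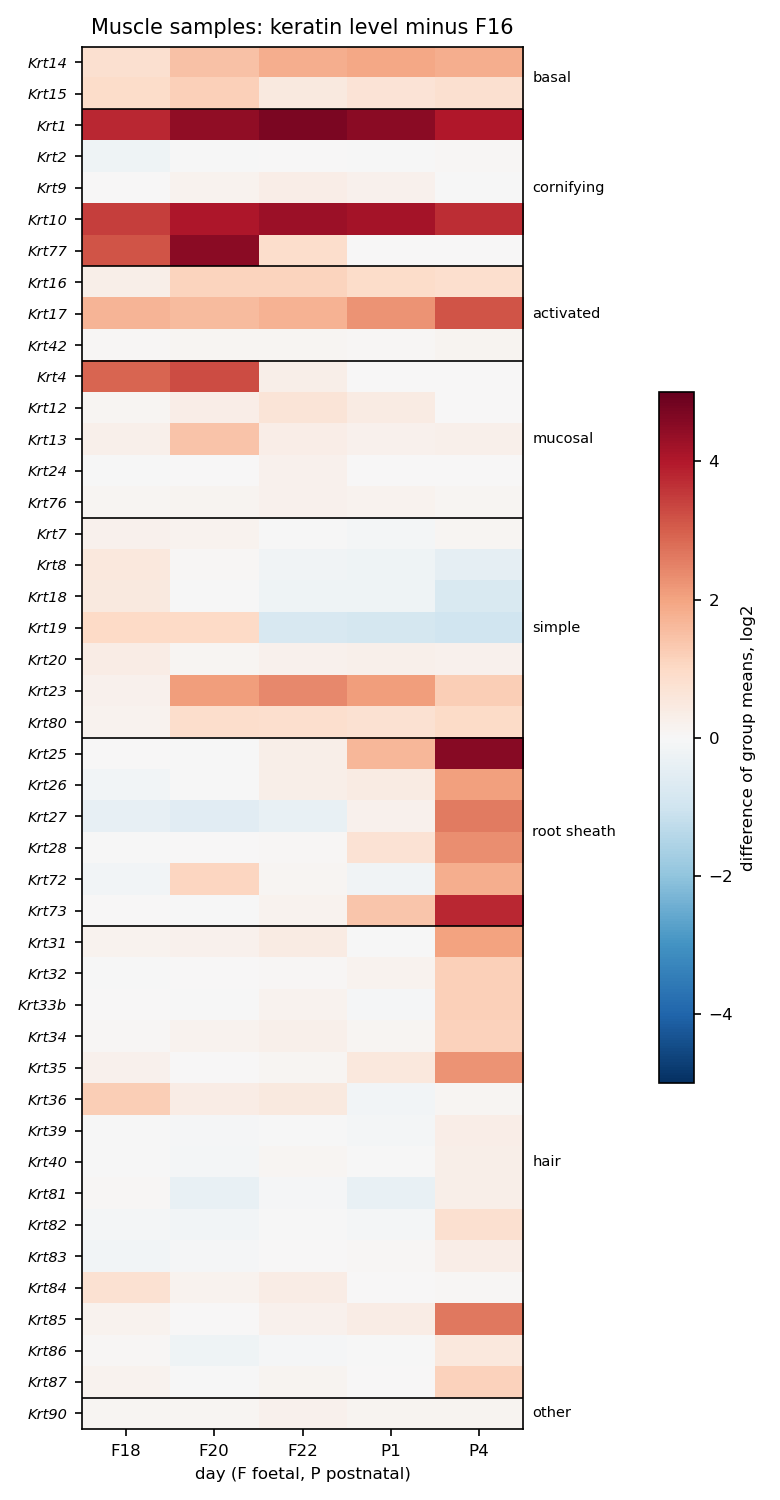
Change in level of the 44 keratin genes in muscle, as the group mean at F18, F20, F22, P1 and P4 (columns) minus the mean at F16, on a log2 colour scale, with genes (rows) grouped by role. Krt1 and Krt10 are red in all columns, Krt77 and Krt4 at F18 and F20, and the root sheath and most hair genes at P4.

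The cornifying keratins Krt1 (type II) and Krt10 (type I), which pair with each other in the layers above the basal layer, had the largest rises between F16 and F18. Krt1 read 9.60, 8.76, 9.13, 9.20 and 8.12 at F16, 12.81, 12.63, 12.68, 12.63 and 12.98 at F18, and 13.43, 13.50, 13.40, 13.16 and 13.43 at F20. It read 13.71, 13.73, 13.72, 13.76 and 13.33 at F22, 13.50, 13.43, 13.68, 13.56 and 13.25 at P1, and 12.81, 12.72, 12.88, 13.09 and 13.32 at P4. The F18 arrays all lay above every F16 array, and the P4 arrays all lay below those of F22. The level rose by 3.78 ± 0.17 at F18 over F16 (log2 change ± SE, adjusted p = 8.9e-16) and by 0.64 ± 0.17 at F20 over F18, and fell by 0.52 ± 0.17 at P4 against P1 (adjusted p = 0.015).

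Krt10, whose promoter is printed above, followed the same course. Its levels were 10.15, 9.38, 9.51, 9.62 and 8.75 at F16 and between 12.85 and 13.15 at F18. They reached 13.80, 13.81, 13.80, 13.85 and 13.51 at F22 and were 13.07, 12.91, 13.16, 13.30 and 13.47 at P4. The rise at F18 over F16 was 3.47 ± 0.15 (adjusted p = 8.9e-16), and at P4 over F16 it was 3.70 ± 0.15 (adjusted p = 3.4e-18). The fall at P4 against P1 was smaller, with a change of -0.45 ± 0.15 (adjusted p = 0.018), and missed the threshold without P4 replicate 2 (-0.39, adjusted p = 0.059).

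Krt77, a keratin of the suprabasal epidermis in mouse and of sweat ducts in human, was high for a short time. It read 7.02 to 7.15 at F16, then 10.44, 9.46, 9.93, 10.06 and 11.20 at F18 and 11.80, 12.18, 12.27, 11.00 and 10.60 at F20. At F22 it read 7.85, 9.03, 7.86, 7.80 and 7.18, at P1 6.78 to 7.45 and at P4 6.87 to 7.50. No F18 or F20 array overlapped with any of the other 4 time points. Krt77 rose by 3.14 ± 0.30 at F18 over F16 (adjusted p = 4.4e-09) and by another 1.36 ± 0.30 at F20 (adjusted p = 0.00087), and fell by 3.63 ± 0.30 at F22 against F20 (adjusted p = 8.6e-09). At P4 it was 0.01 ± 0.30 above F16 (adjusted p = 0.99). Krt2 and Krt9, keratins of the upper epidermis and of footpad skin, stayed dim at all time points. Krt2 changed by -0.21 ± 0.08 at F18 against F16 (adjusted p = 0.035) and Krt9 by -0.25 ± 0.09 at P4 against P1 (adjusted p = 0.028). Each of these calls was lost when any of 6 single arrays was left out (highest adjusted p = 0.12 for Krt2 and 0.14 for Krt9), and without P4 replicate 2 the change of Krt9 was -0.15.

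The basal keratins rose less, from a higher start. Krt14, the type I keratin of dividing basal keratinocytes, read 10.78, 10.21, 10.68, 10.93 and 9.96 at F16 and 11.39, 11.14, 11.15, 11.25 and 11.66 at F18. It read 11.84 to 12.15 at F20, 12.18 to 12.47 at F22, 12.26 to 12.60 at P1 and 12.16, 12.33, 12.49, 12.41 and 12.34 at P4. The groups of F16, F18 and F20 did not overlap, and those of F22, P1 and P4 did. Krt14 rose by 0.80 ± 0.13 at F18 over F16 and by 0.67 ± 0.13 at F20 over F18 (adjusted p = 2.3e-05 and 0.00023), and stood 1.83 ± 0.13 higher at P4 than at F16 (adjusted p = 6.1e-13).

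Krt15, which marks basal cells and the follicle bulge, read 9.88, 9.41, 10.17, 9.74 and 9.46 at F16, 10.74, 10.81, 10.26, 10.44 and 11.09 at F18 and 11.37, 11.29, 11.28, 10.24 and 10.47 at F20. At F22 it read 9.95 to 10.61, at P1 10.08 to 10.82 and at P4 10.39, 10.53, 10.82, 10.39 and 10.46. It rose at F18 over F16 (0.94 ± 0.20, adjusted p = 0.00045) and fell at F22 against F20 (-0.71 ± 0.20, adjusted p = 0.011). F20 replicates 4 and 5 lay below the other 3 arrays by more than the spread among those 3. Without 3 arrays with single high hair or gut keratins, described below, the fall at F22 missed the threshold (-0.55, adjusted p = 0.096).

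Among the keratins of activated keratinocytes, Krt17, which also lies in the outer root sheath and other appendages, read 9.06, 8.31, 8.77, 8.84 and 7.86 at F16 and 10.26, 10.42, 9.87, 9.98 and 10.73 at F18. It read 10.52, 10.44, 10.60, 9.49 and 9.78 at F20, 9.96 to 10.82 at F22, 10.54 to 10.99 at P1 and 11.69, 11.69, 11.76, 11.72 and 11.78 at P4. All P4 arrays lay above all arrays of the other time points. Krt17 rose by 1.68 ± 0.21 at F18 over F16 (adjusted p = 4.4e-07) and by 0.92 ± 0.21 at P4 over P1 (adjusted p = 0.00097). Krt16, which is induced in hyperproliferative epidermis, was dim, at 5.31 to 5.59 at F16, and rose by 0.82 ± 0.17 at F20 over F18 (adjusted p = 0.00037). Krt42, which read 7.38 to 7.93 over all 30 arrays, did not pass the F-test (adjusted p = 0.57).

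Of the keratins of mucosa and cornea, Krt4 and Krt13 were high in a foetal window only. Krt4, the type II keratin of oesophagus and tongue, read 6.46 to 6.86 at F16, 9.79, 9.98, 8.94, 8.84 and 10.22 at F18 and 10.49, 10.72, 10.74, 8.61 and 9.04 at F20. It was back at 6.50 to 7.30 at F22, 6.60 to 6.78 at P1 and 6.34 to 6.93 at P4. The F18 and F20 arrays overlapped with each other and with no other group. Krt4 rose by 2.90 ± 0.30 at F18 over F16 (adjusted p = 2.3e-08) and fell by 2.98 ± 0.30 at F22 against F20 (adjusted p = 1.3e-07).

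Krt13, the type I partner of Krt4, was high at F20, with no called change at F18 over F16. Its levels were 6.86 to 7.22 at F16, 7.06 to 7.57 at F18, then 8.15, 8.47, 8.24, 8.18 and 9.10 at F20 and 7.28 to 7.55 at F22. It rose by 1.16 ± 0.13 at F20 over F18 (adjusted p = 1.8e-07) and fell by 1.07 ± 0.13 at F22 against F20 (adjusted p = 2.9e-06). Krt12, of the cornea, read 7.36 to 7.61 at F16, 7.82 to 8.91 at F22 and 7.40 to 7.73 at P4, and its fall at P4 against P1 (-0.37 ± 0.14, adjusted p = 0.039) missed the threshold when any of 6 single arrays was left out (highest adjusted p = 0.14). Krt24 rose by 0.19 ± 0.06 at F22 over F20 and fell by 0.20 ± 0.06 at P1 against F22, calls that were lost when any of 5 and of 4 single arrays was left out (highest adjusted p = 0.073 and 0.086), and Krt76 did not pass the F-test.

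**Figure D2:**
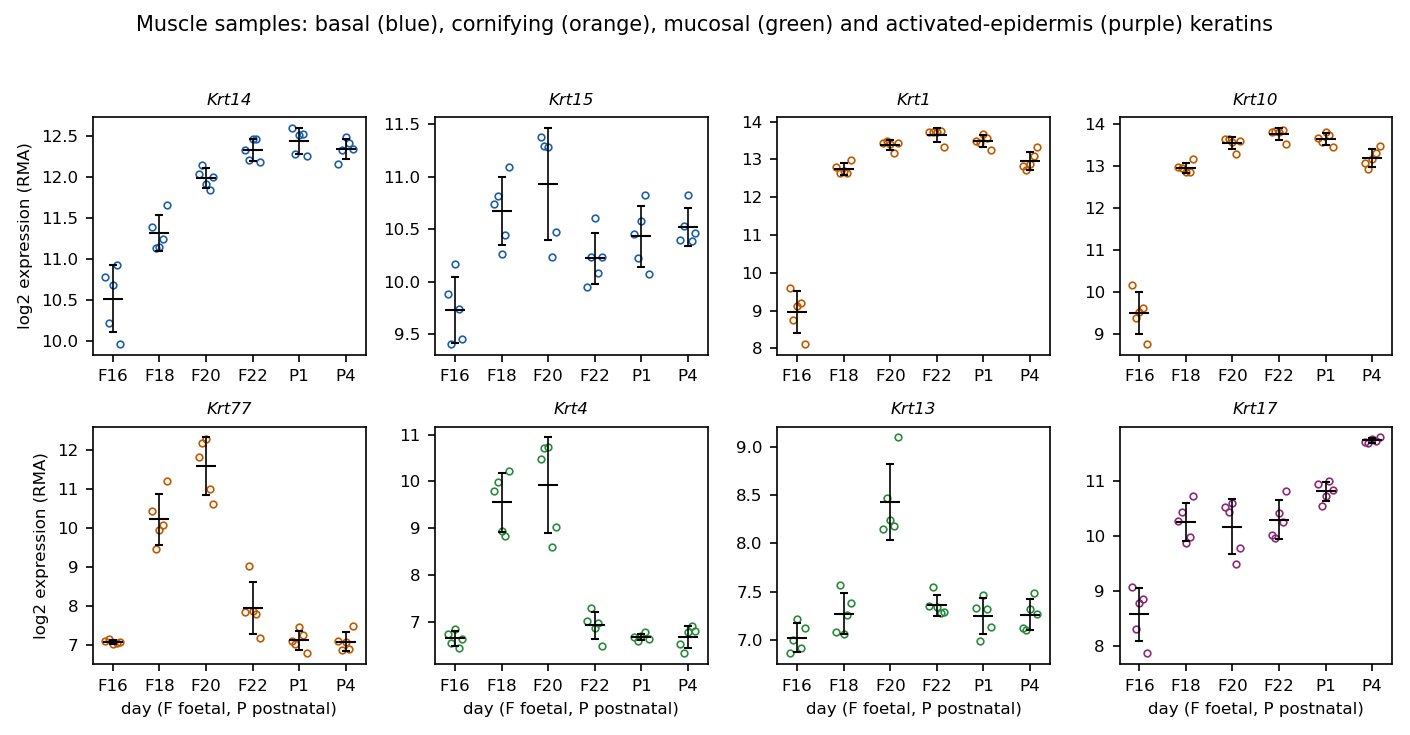
Log2 RMA level in muscle (y axes) of Krt14, Krt15, Krt1, Krt10, Krt77, Krt4, Krt13 and Krt17 at F16 to P4 (x axes), with points for arrays and bars for the mean ± SD (n = 5 each). Krt1 and Krt10 stay high after F18, Krt77 and Krt4 are high at F18 and F20, Krt13 at F20, and Krt17 is highest at P4.

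Within F20 the 5 muscle arrays fell into 2 sets on these genes. Replicates 4 and 5 read lower than replicates 1 to 3 for Krt4, Krt77, Krt15 and Krt17. For Krt19, a simple keratin also found in foetal epidermis, they read 8.37 and 8.44, while replicates 1 to 3 read 9.73, 9.68 and 9.84. For Krt23 they read higher, 9.56 and 9.47, while replicates 1 to 3 read 7.95, 7.76 and 7.68. The same arrays stood apart for 11 genes of the cornified envelope, whose mean level was 10.53 and 10.43 in replicates 4 and 5 and 9.15 to 9.37 in replicates 1 to 3. Lce1m, a late envelope protein, read 12.32 and 11.95 in replicates 4 and 5 of F20 and 8.40, 8.47 and 8.27 in replicates 1 to 3, next to 12.23, 12.36, 12.20, 12.34 and 11.40 at F22. These 2 arrays lay between the other F20 arrays and those of F22 for Krt4, Krt77 and Krt19, above both for Krt23, and among the F22 arrays for Lce1m, and the cause was not tested. F22 replicate 5 was lower than the rest of F22 in the envelope mean (9.61, the others 10.69 to 10.97), in Krt23 (7.59, the others 8.90 to 9.32), and in Krt1 and Krt10.

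With F16 replicate 5, which was the lowest of its group in 19 of 44 genes, F20 replicates 4 and 5 and F22 replicate 5 left out, further changes passed the threshold. These arrays were chosen after their values in these same genes were seen. The calls gained below thus follow in part from that choice and are no separate support. At F20 over F18, Krt4 (1.10), Krt15 (0.64) and Krt19 (0.57) rose, with adjusted p of 0.00062, 0.012 and 0.046, and Krt23 rose at F22 over F20 by 1.33 (adjusted p = 5.9e-06). After birth, Krt77 and Krt23 then fell at P1 against F22, with changes of -1.02 and -0.64, and Krt17 rose by 0.64. Krt13 was then above F16 at F18 (0.28, adjusted p = 0.047) and at P4 (0.26, adjusted p = 0.038). The rises of Krt1, Krt10, Krt77 and Krt4 at F18 stayed past the threshold. Calls were lost for Krt8 (adjusted p = 0.052) and Krt2 (adjusted p = 0.061) at F18 against F16, for Krt8, Krt18, Krt81 and Krt86 at F20 against F18 (adjusted p = 0.19, 0.074, 0.17 and 0.2), and for Krt26 and Krt40 at F22 against F20 (adjusted p = 0.053 and 0.055).

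The simple epithelial keratins were dimmer in muscle and did not move together. Krt18, in its brightest probe set, read 9.06, 8.62, 8.82, 8.93 and 8.34 at F16, 9.14, 9.19, 8.81, 9.94 and 9.22 at F18 and 8.02, 7.96, 8.13, 8.00 and 7.88 at P4, and was lower at P4 than at F16 in all arrays (-0.76 ± 0.15, adjusted p = 5.8e-05). A dimmer Krt18 probe set had means of 7.26 at F16 and 6.85 at P4. The other dimmer Krt18 probe set had means of 7.21 and 7.14 and did not pass the F-test (adjusted p = 0.29). The partner of Krt18, Krt8, in its brightest probe set, read 8.40, 8.00, 8.27, 8.26 and 7.99 at F16, 8.46, 8.86, 8.05, 9.67 and 8.43 at F18 and 7.53, 7.66, 7.65, 7.99 and 7.91 at P4. The P4 and F16 arrays of this probe set touched at 7.99, and the change at P4 was -0.44 ± 0.17 (adjusted p = 0.027). It missed the threshold when any of 6 single arrays was left out (highest adjusted p = 0.071). The slightly dimmer Krt8 probe set had means of 8.05 at F16, 8.84 at F18 and 7.54 at P4. Its P4 arrays (7.43 to 7.73) all lay below those of F16 (7.82 to 8.24). Krt19 read 8.36, 8.07, 8.20, 8.57 and 7.80 at F16, 8.95, 9.50, 8.26, 9.66 and 9.55 at F18 and 6.95 to 7.71 at F22. It rose at F18 (0.99 ± 0.25, adjusted p = 0.003), fell at F22 against F20 (-1.82 ± 0.25, adjusted p = 1.2e-05) and was lower at P4 than at F16 (-0.99 ± 0.25, adjusted p = 0.0011).

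Krt23 and Krt80 went the other way. Krt23, a small type I keratin induced in several epithelia, read 6.23 to 6.56 at F16, 8.05 to 8.90 at P1 and 7.64, 7.40, 7.38, 7.75 and 8.10 at P4. It rose by 1.87 ± 0.31 at F20 over F18 (adjusted p = 3.3e-05), a step on which the F20 arrays disagreed as described, and its fall at P4 against P1 (-0.83 ± 0.31, adjusted p = 0.038) missed the threshold when any of 7 single arrays was left out (highest adjusted p = 0.096). Krt80, a type II keratin of cell margins in differentiating epithelia, read 8.04, 7.98, 8.20, 8.10 and 8.17 at F16, 8.78, 8.70, 8.74, 9.33 and 9.29 at F20 and 8.98, 9.01, 9.00, 9.14 and 9.19 at P4. It was 0.70 ± 0.11 higher at F20 than at F18 and 0.96 ± 0.11 higher at P4 than at F16 (adjusted p = 2.6e-05 and 1.4e-08). Krt7 changed little, with group means that ranged over 0.32.

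F18 replicate 4 carried the highest Krt8, Krt18, Krt19 and Krt20 of its group and the lowest Krt23. It read 9.67 for Krt8 (the others 8.05 to 8.86), 9.94 for Krt18 (8.81 to 9.22) and 8.09 for Krt20, an intestinal keratin that read 6.28 to 6.39 in the others. The same muscle array had a mean of 7.75 over 11 gut and pancreas markers (the others 6.60 to 7.02) and of 8.32 over 12 hepatocyte markers (6.84 to 7.25), with Alb at 12.12. Their part in these keratin values was not tested. Without this array, F20 replicate 3 and F22 replicate 1, the brightest Krt8 probe set rose at F18 over F16 by 0.27 (adjusted p = 0.097). Its fall at F20 against F18 then missed the threshold too (adjusted p = 0.13). With all arrays the rise was 0.51 ± 0.17 (adjusted p = 0.02), a call that was lost when any of 3 single arrays was left out (highest adjusted p = 0.088). In the other Krt8 probe set F18 replicate 4 read 9.86 and the rest of F18 8.08 to 9.01, against 7.82 to 8.24 at F16.

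The keratins of the inner root sheath, the sleeve that moulds the growing hair, read at most 7.73 in every foetal array, except for Krt72 at F20. Krt25, type I, read 6.13 to 6.36 at F16, 6.04 to 6.52 at F18, 6.09 to 6.33 at F20 and 6.38, 6.42, 6.22, 6.33 and 7.29 at F22. It then read 8.09, 7.51, 8.23, 7.75 and 7.80 at P1 and 10.99, 10.64, 10.49, 10.63 and 11.20 at P4. Each of these last steps was free of overlap, and Krt25 rose by 1.35 ± 0.16 at P1 over F22 (adjusted p = 4.6e-07), by 2.91 ± 0.16 at P4 over P1 (adjusted p = 2e-14) and by 4.57 ± 0.16 at P4 over F16 (adjusted p = 1.1e-19). This was the largest change of any keratin between F16 and P4.

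Krt73, a type II partner, read 6.76 to 6.92 at F16, 6.88, 6.91, 6.89, 7.06 and 7.39 at F22, 8.27, 8.02, 8.27, 8.18 and 8.27 at P1 and 10.72, 10.61, 10.20, 10.51 and 10.95 at P4. Its rises were 1.18 ± 0.11 at P1 over F22 and 2.39 ± 0.11 at P4 over P1 (adjusted p = 7.3e-09 and 7.3e-16). Krt27 read 7.32, 7.63, 7.56, 7.58 and 7.33 at F16, 7.46 to 7.81 at P1 and 10.22, 9.73, 9.81, 10.04 and 10.62 at P4. Krt28 read 7.44, 7.43, 7.35, 7.16 and 7.29 at F16, 7.91 to 8.33 at P1 and 9.69, 9.69, 9.65, 9.38 and 9.81 at P4. Both rose at P1 over F22 (0.58 ± 0.13 and 0.67 ± 0.08) and again at P4 over P1 (2.40 ± 0.13 and 1.57 ± 0.08). In these 4 genes P1 already stood above F20, and P4 stood above P1 in every array. Krt27 had fallen by 0.43 at F18 against F16 and was lowest at F20, and its P1 arrays overlapped with those of F16 and with F22 replicate 5 (7.51).

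Krt26 and Krt72 differed at the earlier steps. Krt26 read 7.91 to 8.80 at P4 and 6.52 to 6.69 at P1, a rise of 1.66 ± 0.11 (adjusted p = 7.4e-13) that followed no called change at P1 over F22 (0.12 ± 0.11, adjusted p = 0.53). Krt72 had a peak at F20, where it read 8.24, 8.18, 7.96, 7.81 and 8.12, between 6.78 to 7.01 at F18 and 6.94 to 7.38 at F22. It rose by 1.19 ± 0.13 at F20 over F18 (adjusted p = 7.3e-08), fell by 0.95 ± 0.13 at F22 against F20 (adjusted p = 9.7e-06), and read 9.10, 8.78, 8.29, 8.57 and 9.31 at P4. All 6 root sheath genes rose at P4 over P1, with a median change of 2.18, and at P4 over F16, with a median of 2.46.

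Of the 15 hair and nail keratins, 13 rose at P4 over P1 and 12 at P4 over F16, with median changes of 0.91 and 0.81. None fell at either step. Krt85, the type II keratin of the hair matrix, was the brightest and read 8.57, 8.71, 8.70, 8.79 and 8.66 at F16, 8.94, 8.92, 9.10, 9.01 and 9.26 at P1 and 11.54, 11.31, 11.33, 10.90 and 11.58 at P4. It rose by 2.29 ± 0.18 at P4 over P1 (adjusted p = 8.4e-11). Krt31, a type I keratin of the hair cortex, read 9.25, 9.24, 8.79, 9.37 and 9.88 at P4 and 7.26, 7.42, 7.25, 7.19 and 7.26 at P1, a rise of 2.03 ± 0.26 (adjusted p = 6.3e-07). Krt35, which precedes Krt31 in the hair matrix, was the only hair keratin called at P1 over F22 (0.42 ± 0.09, adjusted p = 0.0012), and rose by 1.75 ± 0.09 at P4 over P1 (adjusted p = 9.1e-15).

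The second brightest, Krt87, read 7.85, 7.90, 7.90, 7.87 and 7.83 at F16, 7.82 to 8.09 at P1 and 9.11, 8.87, 8.83, 8.87 and 9.49 at P4 (1.13 ± 0.12 over P1). The rises of Krt33b, Krt34, Krt32 and Krt82 at P4 over P1 were 1.27, 1.06, 1.03 and 0.91. Those of Krt81, Krt86, Krt39, Krt40 and Krt83 lay between 0.65 and 0.26, and that of Krt83 was lost when either of 2 single arrays was left out (highest adjusted p = 0.061). Among the hair keratins that rose at P4 over P1, only Krt39 and Krt83 had P4 arrays that overlapped with those of P1.

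The 2 hair keratins that did not rise at P4 were Krt36 and Krt84, which share a different time course. Krt36 read 8.16, 7.65, 8.30, 8.23 and 7.97 at F18 and 6.69 to 6.98 at F16, and Krt84 read 7.78, 7.63, 7.80, 8.01 and 7.72 at F18 and 6.93 to 7.23 at F16. Both rose at F18 over F16, by 1.22 ± 0.40 and 0.74 ± 0.22 (adjusted p = 0.017 and 0.011), with no overlap of the groups. At F20 Krt36 read 6.73 to 6.88 in 4 arrays and 8.90 in replicate 3, and at F22 it read 6.60 to 6.85 in 4 arrays and 9.67 in replicate 1. Krt84 was also high there, at 8.04 and 8.71. Krt84 is a nail and tongue keratin and Krt36 a keratin of nail and filiform papillae in human.

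F20 replicate 3 and F22 replicate 1 were also high for Krt31 (8.25 and 9.21, the other arrays of their groups 7.15 to 7.53) and Krt85 (9.30 and 9.88, the others 8.41 to 8.95). For Krt25 and Krt73 they read with their groups, 6.12 and 6.38, and 6.95 and 6.88. With these arrays and F18 replicate 4 left out, Krt36 and Krt84 fell at F20 against F18 by 1.21 and 0.69 (adjusted p = 6e-09 and 2.1e-05), and Krt85 rose at P1 over F22 by 0.38 (adjusted p = 0.021). None of these steps was called with all arrays. F20 replicate 3 and F22 replicate 1 were chosen for their high values in these genes, so that these calls follow in part from the choice. With single arrays left out, the highest adjusted p at F20 against F18 was 0.23 for Krt36 and 0.15 for Krt84.

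**Figure D3:**
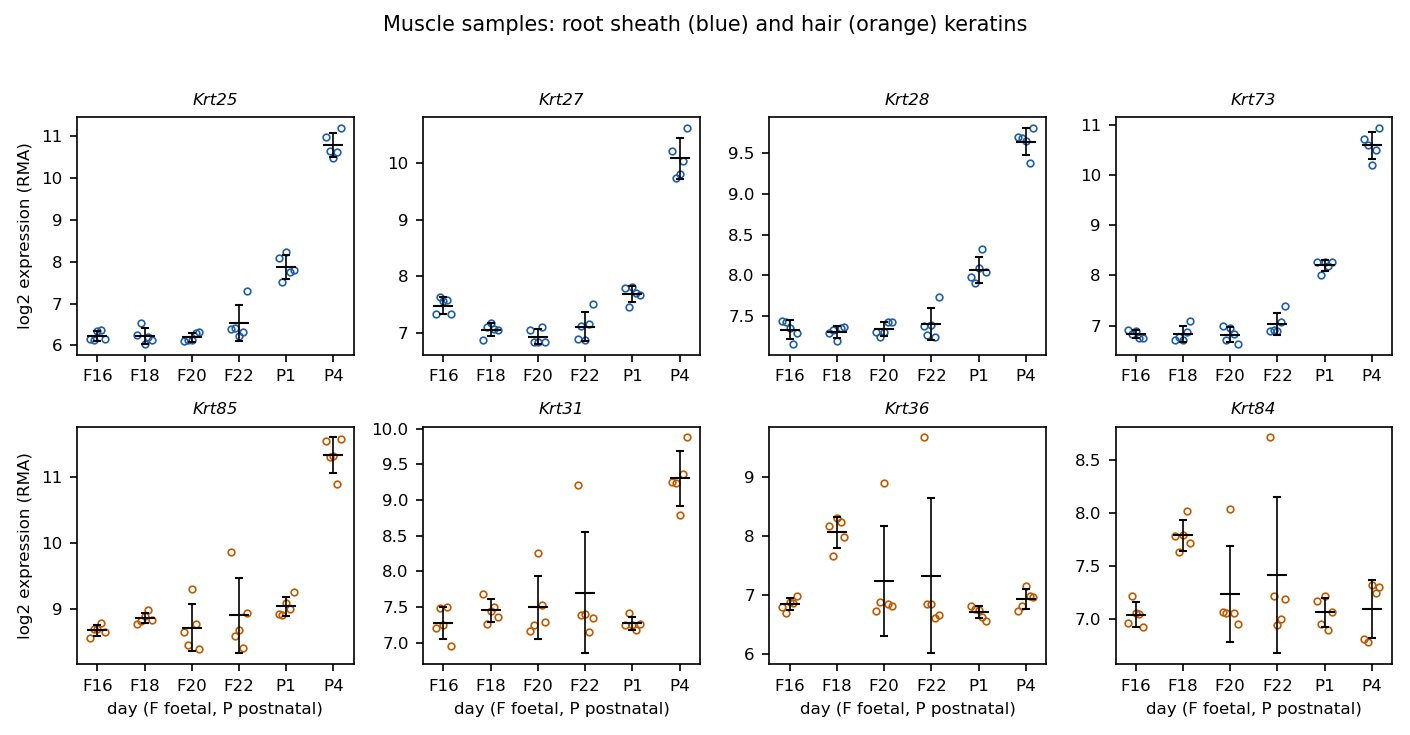
Log2 RMA level in muscle (y axes) of Krt25, Krt27, Krt28 and Krt73 of the inner root sheath (blue) and Krt85, Krt31, Krt36 and Krt84 of hair and nail (orange) at F16 to P4 (x axes), with points for arrays and bars for the mean ± SD (n = 5 each). Root sheath genes step up at P1 and again at P4, Krt85 and Krt31 step up at P4, and Krt36 and Krt84 are high at F18 and in single arrays of F20 and F22.

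Other genes of these tissues were set beside the keratins, and the shares of all probe sets given above for each step apply to their counts too. Of 14 keratinocyte genes that are no keratins, 11 rose at F18 over F16 (median 1.01) and 13 at P4 over F16 (median 1.67), while 3 rose and 3 fell at P4 against P1. Perp, a desmosomal protein of stratified epithelia, read 11.69 to 12.03 at F18 and 10.02 to 10.88 at F16. Pkp1, a desmosomal plakophilin, averaged 8.33 ± 0.25 at F16, 10.40 ± 0.19 at F18 and 11.76 ± 0.36 at F22 (SD, n = 5 each). Trim29, a keratinocyte regulator, rose by 1.37 ± 0.17 at F18 over F16, and Grhl3, a transcription factor of the epidermal barrier, rose by 0.92 ± 0.20 and fell by 0.69 ± 0.20 at P4 against P1. The mean of the 14 genes spanned 7.93 to 8.27 at F16, 9.12 to 9.46 at F18, 9.54 to 10.08 at F20, 9.63 to 10.34 at F22, 9.66 to 10.40 at P1 and 9.82 to 10.10 at P4.

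The F18 step in Krt1 and Krt10 thus came with a step in other epidermal genes in the same arrays, and the part of the amount of skin in the samples was not tested. All 9 desmosomal genes rose at F18 over F16 (median 1.24), as in the case of Jup, plakoglobin (1.07 ± 0.10). Of 11 cornified envelope genes 4 rose at F18 over F16 and 10 at F20 over F18 (median 1.5), and 6 fell at P4 against P1 (median -0.86). Tgm3, a transglutaminase that cross-links the envelope, rose by 2.62 ± 0.24 at F18 over F16 and by 2.08 ± 0.24 at F20 over F18, and fell by 1.00 ± 0.24 at P4 against P1. Tgm1 and Ppl, a transglutaminase and a plakin of the envelope, rose by 1.56 ± 0.23 and 1.46 ± 0.16 at F18 and fell by 0.86 ± 0.23 and 0.92 ± 0.16 at P4 against P1.

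At P4 over P1, 9 of 11 keratin-associated and hair follicle genes rose, with a median of 0.71. Dlx3, a transcription factor of hair matrix and epidermis, rose by 1.40 ± 0.11 and Msx2, of the hair matrix and limb bud, by 1.56 ± 0.10. Lhx2, of the follicle stem cells, rose by 0.67 ± 0.14. Msx2 and Lhx2 had fallen at F18 against F16 (-1.17 ± 0.10 and -0.89 ± 0.14). Krtap31-1, a hair keratin-associated protein, read 9.65 to 10.40 at P4 and was not called (-0.12 ± 0.10 at P4 against P1, adjusted p = 0.4). Of 10 dermal fibroblast genes 7 rose and 3 fell at P4 against F16 (median 1.09), against 26.7% and 35.0% of all probe sets. At P4 against P1 none rose and 2 fell (19.2% and 14.7% of all). The mean of the 10 genes spanned 10.98 to 11.31 at F16, 11.91 to 11.99 at F18 and 12.21 to 12.34 at P4. Of 6 melanocyte genes 1 rose at P4 over F16, Mitf, by 0.61 ± 0.06.

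The muscle genes themselves rose over the same time. Of 9 skeletal muscle genes, 8 were higher at P4 than at F16 (median 2.09), and 7 rose at F18 over F16 (median 0.65). Desmin, Des, the main intermediate filament protein of muscle, rose by 2.09 ± 0.11 at P4 over F16, while vimentin, Vim, stood between 13.57 and 13.78 in all 30 arrays. Of 14 intermediate filament genes that are no keratins, 4 were higher and 5 lower at P4 than at F16. These shares were close to the 26.7% and 35.0% of all probe sets.

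**Figure D4:**
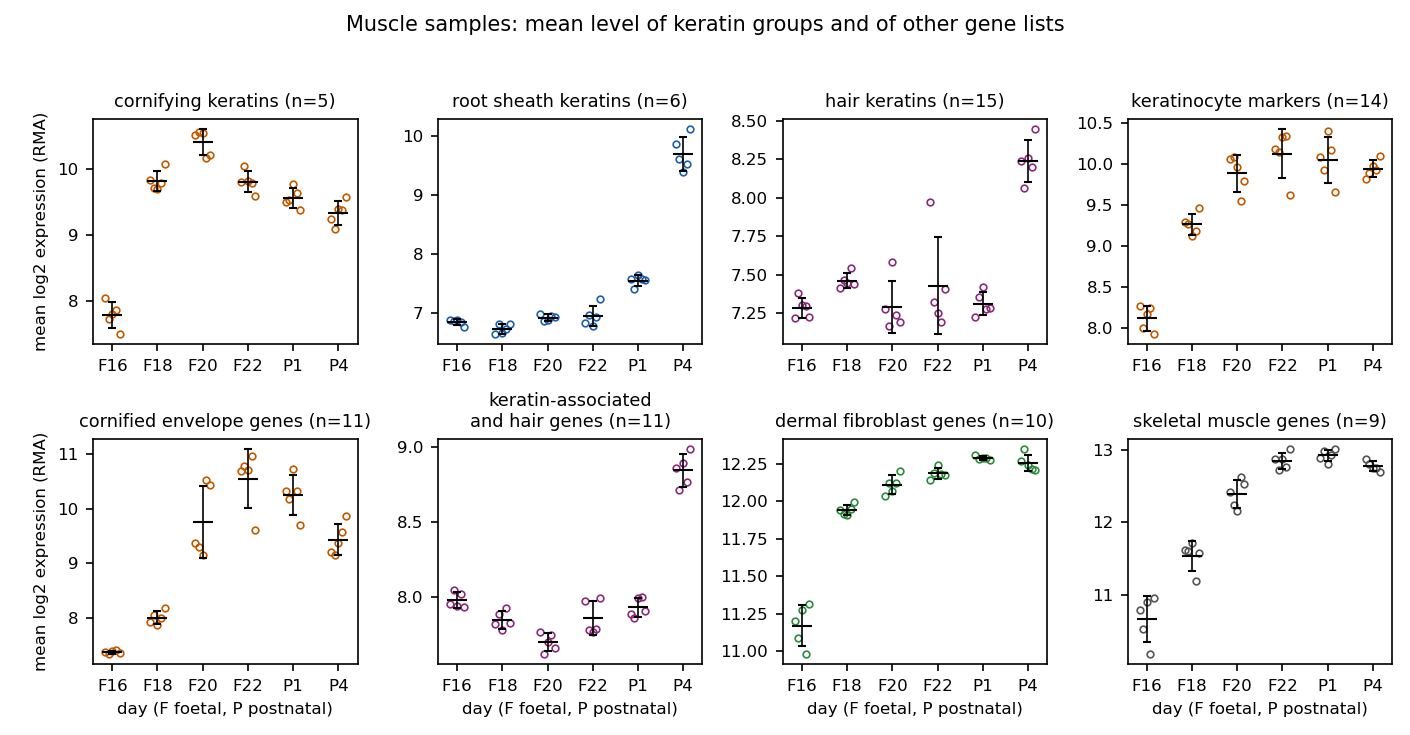
Mean log2 RMA level per muscle array (y axes) of cornifying (5), root sheath (6) and hair (15) keratins, and of keratinocyte (14), cornified envelope (11), keratin-associated and hair (11), dermal fibroblast (10) and skeletal muscle (9) genes at F16 to P4 (x axes), with points for arrays and bars for the mean ± SD (n = 5 each). The cornifying keratins and keratinocyte genes step up at F18, the envelope genes mostly at F20, and root sheath, hair and keratin-associated genes at P4.

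In liver the keratins differed in another way. Krt18 and Krt8 were the brightest by far, with mean levels above 97.0% and 91.1% of all probe sets, and Krt19 was next at 53.7%. Between F16 and F20 Krt8 and Krt18 rose together, Krt19 moved up and down, Krt23 was high after birth, and Krt10 was highest at P4. Of the 47 probe sets 34 passed the F-test over the 6 time points, against 84.3% of all.

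From F16 to F20, 7 keratin probe sets rose and 2 fell (9.22% and 13.2% of all probe sets). Of the 7, 5 belong to Krt8 and Krt18, and with 1 probe set per gene 4 of 44 genes rose, a share close to that of all probe sets. From F20 to F22, 3 rose and 1 fell (15.3% and 21.6% of all). From F22 to P1, 4 rose and 2 fell (14.8% and 21.9% of all), and from P1 to P4, 3 rose and 2 fell (4.87% and 6.10% of all). Between P4 and P90, 14 rose and 5 fell, against 28.8% and 27.1% of all, and between F16 and P4, 16 rose and 2 fell, against 23.1% and 35.0%. Between F16 and P90, 29 rose and 1 fell, against 37.9% and 35.5% of all, with a median change of 0.25 for keratins and 0.07 over all. The share that rose was above that of all probe sets at P90 over F16 and close to it at P90 over P4. With each array centred on its own median, 22 rose and 3 fell at P90 against P4. The share of all probe sets was not taken at that setting, so that these counts cannot be set against 28.8% and 27.1%.

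Krt8, whose promoter is printed above, read 10.06, 10.26, 10.05 and 9.93 at F16, 10.84, 10.80, 10.84 and 10.76 at F20 and 10.65, 10.89, 10.84 and 10.79 at F22. It read 10.92, 10.36, 10.67 and 10.37 at P1, 10.66, 10.69, 10.77 and 10.51 at P4 and 10.45, 10.34, 10.46 and 10.32 at P90. All later arrays lay above those of F16, and the P90 arrays lay below those of P4. Krt8 rose by 0.73 ± 0.10 at F20 over F16 (adjusted p = 5.8e-06), and the change at P90 against P4 was -0.26 ± 0.10 (adjusted p = 0.023), which missed the threshold without P4 replicate 3, P90 replicate 2 or P90 replicate 4 (highest adjusted p = 0.071). The dimmer Krt8 probe set changed by 0.85 ± 0.10 and -0.25 ± 0.10 at these steps.

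Krt18 read 10.97, 11.16, 11.13 and 10.90 at F16, 11.84, 11.80, 11.64 and 11.76 at F20 and 11.99, 12.15, 11.96 and 12.10 at F22. It read 11.70, 11.60, 11.71 and 11.64 at P1, 11.57, 11.62, 11.82 and 11.69 at P4 and 11.99, 11.93, 11.91 and 11.91 at P90. F16 did not overlap with any later group, and P90 lay above P1 and P4. The level rose by 0.72 ± 0.07 at F20 over F16 (adjusted p = 2.8e-08) and by 0.29 ± 0.07 at F22 over F20, fell by 0.39 ± 0.07 at P1 against F22 (adjusted p = 4.8e-05), and was 0.26 ± 0.07 higher at P90 than at P4 (adjusted p = 0.002). The other 2 probe sets of Krt18 changed by 0.74 ± 0.11 and 0.58 ± 0.11 at F20 over F16 and by 0.47 ± 0.11 and 0.58 ± 0.11 at P90 over P4. At P90 against P4 the partners Krt18 and Krt8 thus carried opposite signs in all 5 of their probe sets, and the difference between them was not tested.

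Krt19, the type I keratin of bile duct cells and of their progenitors, read 7.95, 8.10, 8.01 and 8.05 at F16, 8.46, 8.48, 8.98 and 8.38 at F20 and 8.01, 7.99, 7.46 and 7.80 at F22. It read 8.36, 8.76, 8.29 and 8.70 at P1, 8.03, 7.67, 8.32 and 7.95 at P4 and 7.42, 7.15, 7.56 and 7.09 at P90. F20 and P1 lay above F16 and F22 without overlap, and P90 lay below all other groups except for 1 array of F22. The changes were 0.55 ± 0.15 at F20 over F16 (adjusted p = 0.01), -0.76 ± 0.15 at F22 against F20, 0.72 ± 0.15 at P1 over F22 (adjusted p = 0.00052), -0.54 ± 0.15 at P4 against P1 (adjusted p = 0.023) and -0.69 ± 0.15 at P90 against P4 (adjusted p = 0.0005). The call at P4 against P1 was lost when any of 4 single arrays was left out (highest adjusted p = 0.096). Of 13 biliary genes that are no keratins, 5 rose and 2 fell at P4 against F16, against 23.1% and 35.0% of all probe sets. Their mean level spanned 7.16 to 7.48 at F16, 7.25 to 7.87 at F20 and 7.47 to 7.75 at F22. It spanned 7.79 to 8.03 at P1, 7.75 to 7.80 at P4 and 7.33 to 7.38 at P90. Averaged over arrays it was 7.42 at F20 and 7.59 at F22, a step at which Krt19 fell. It averaged 7.28 at F16 and 7.36 at P90, while the P90 arrays of Krt19 lay below those of F16. Krt7, the other biliary keratin, read 6.44 to 6.93 over all 24 arrays, with no called change.

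F20 replicate 3 of liver carried the highest Krt19 (8.98) and Krt20 (8.18, the others 6.37 to 6.44) of its group. Its mean over 11 gut and pancreas markers was 8.05 (the others 6.16 to 6.30) and over the biliary markers 7.87 (7.25 to 7.29), and Cpa1, a pancreatic carboxypeptidase, read 9.89 (6.69 to 6.86). Their part in the keratin values was not tested. The rise of Krt19 at F20 was 0.41 without this array (adjusted p = 0.051).

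Krt23 was dim in foetal liver and high after birth. It read 5.81 to 6.20 at F16, 6.56 to 6.71 at F20, 6.25 to 6.85 at F22, then 9.66, 7.71, 8.11 and 7.55 at P1, 7.61, 7.11, 7.43 and 7.13 at P4 and 6.12, 6.22, 6.04 and 5.81 at P90. The P1 and P4 arrays lay above all foetal and all adult ones. The rise at P1 over F22 was 1.70 ± 0.28 (adjusted p = 3.1e-05) and the change at P90 against P4 was -1.27 ± 0.28 (adjusted p = 0.00049). P1 replicate 1 was the highest by more than 1, and the change at P4 against P1 (-0.94 ± 0.28, adjusted p = 0.031) was -0.47 without that array, and missed the threshold without P4 replicate 2, 3 or 4 (highest adjusted p = 0.087).

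Krt10 was the brightest cornifying keratin in liver too and read 6.92, 7.17, 6.98 and 7.02 at F16, 7.42, 7.42, 7.48 and 7.38 at F20 and 8.21, 8.27, 7.88 and 7.50 at F22. It read 7.62, 7.48, 7.71 and 7.80 at P1, 9.06, 8.23, 8.62 and 8.23 at P4 and 7.49, 7.58, 7.43 and 7.71 at P90. The level rose by 0.54 at F22 over F20, a called change. Its mean was highest at P4, where the arrays overlapped with those of F22. The rise at P4 was 0.88 ± 0.15 over P1 (adjusted p = 0.00052) and 1.51 ± 0.15 over F16 (adjusted p = 7.8e-09), and at P90 the level was lower than at P4 by 0.98 on the log2 scale. The epidermal partner of Krt10, Krt1, read 6.19, 6.23, 5.40 and 5.61 at F22, 5.57, 5.55, 5.73 and 5.88 at P4 and at most 6.23 in any liver array. Replicates 1 and 2 of F22 were thus the highest of their group in both genes, and a common source was not tested. The mean of the 14 keratinocyte genes stayed between 6.43 and 6.86 in all groups.

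**Figure D5:**
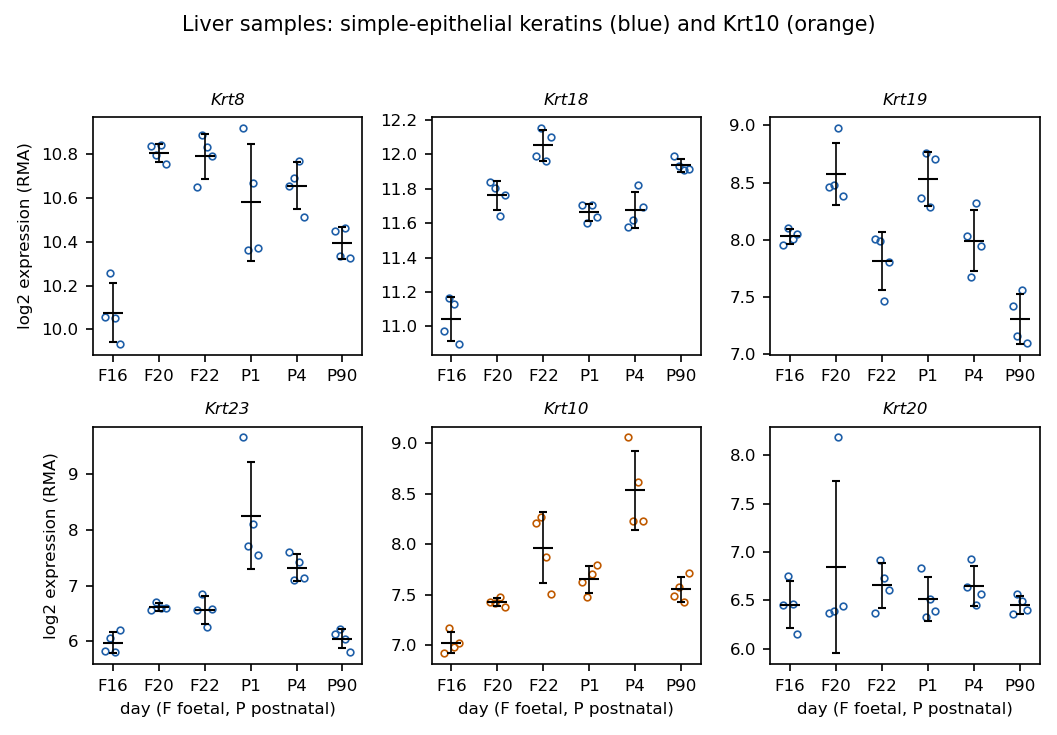
Log2 RMA level in liver (y axes) of Krt8, Krt18, Krt19, Krt23, Krt10 and Krt20 at F16, F20, F22, P1, P4 and P90 (x axes), with points for arrays and bars for the mean ± SD (n = 4 each). Krt8 and Krt18 step up at F20, Krt23 is high at P1 and P4, Krt10 is highest at P4, and Krt20 is high in 1 array of F20.

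The other keratins of liver had mean levels at or below that of Krt85, which lay above 52.7% of all probe sets, and their called changes were small. At P90 against P4 the called rises outside the simple group were led by Krt33b (0.34 ± 0.12), Krt15 (0.32 ± 0.11) and Krt35 (0.26 ± 0.07), and the smallest was that of Krt90 (0.20 ± 0.07). The call was lost when any of 3 single arrays was left out for Krt33b, 2 for Krt15 and 3 for Krt90 (highest adjusted p = 0.099, 0.095 and 0.14), and without P4 replicate 1 the change of Krt90 was 0.09. Krt33b read 7.39, 7.68, 7.76 and 7.68 at P90 and 7.03, 7.37, 7.30 and 7.46 at P4, and Krt35 read 6.67, 6.77, 6.64 and 6.73 at P90 and 6.29, 6.57, 6.30 and 6.59 at P4. Krt17 rose by 0.22 ± 0.09 (adjusted p = 0.049), a call that was lost in 18 of 24 cases when single arrays were left out. Krt85, the brightest hair keratin, read 8.06, 8.40, 8.22 and 8.03 at P90 and 7.78, 7.95, 7.90 and 8.06 at P4. Over the same step the keratinocyte mean was 6.73 to 6.86 at P90 and 6.58 to 6.71 at P4, and the cornified envelope mean was 6.84 to 6.93 at P90 and 6.56 to 6.76 at P4. Both means were thus slightly higher in all P90 arrays than in all P4 arrays. The same held for the melanocyte mean (6.15 to 6.18 at P90, 5.79 to 5.89 at P4) and the desmosome mean (8.35 to 8.41, 7.86 to 7.98). It also held for the gut and pancreas mean (6.98 to 7.02, 6.47 to 6.65). The means of biliary, mesothelial and other intermediate filament genes were lower in all P90 arrays than in all P4 arrays. The part of any of these genes in the keratin values was not tested.

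Of the basal keratins, Krt15 was lower at F20 than at F16. Krt15 read 6.70, 6.31, 6.66 and 6.65 at F20 and 7.18, 6.76, 6.66 and 7.10 at F16, a change of -0.34 ± 0.11 at F20 against F16 (adjusted p = 0.031) that missed the threshold without F16 replicate 1, F16 replicate 4 or F20 replicate 2 (highest adjusted p = 0.14). Krt14 read 6.95, 6.63, 6.43 and 6.74 at F16 and changed by -0.09 ± 0.09 (adjusted p = 0.56). The dermal fibroblast mean was 8.08 to 8.44 at F20 and 8.96, 8.07, 8.54 and 9.16 at F16, and its part in the Krt15 values was not tested. Krt12 was lower at P4 than at F16 (-0.21 ± 0.08, adjusted p = 0.036, lost when any of 4 single arrays was left out, with a change of -0.12 without F16 replicate 2), with arrays of 7.03, 7.10, 6.93 and 6.99 at P4 and 7.04, 7.47, 7.30 and 7.06 at F16. Krt13, Krt9, Krt72, Krt73, Krt42, Krt80, Krt87 and Krt90 read between 5.98 and 7.92 over all liver arrays, with no called change over 0.5 in any comparison.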

How the data were processed

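RNA of 54 rat tissue samples was hybridised to 1-colour Affymetrix Rat Gene ST arrays (30 of muscle, 24 of liver). The deposited values are log2 levels that the authors made with Affymetrix Expression Console (version not given in the sources used here) by background correction, quantile normalisation and summary of probes (RMA), each tissue on its own. RMA compresses differences near background, no detection values were used, and the number of arrays limits the precision, as do the arrays that stood apart from their groups. Genes were named through the platform annotation, and probe sets with several symbols were left out. The keratins and the companion gene lists were chosen with earlier results of these data known. Levels were fitted per tissue with 1 mean per time point in limma 3.58.1 (R 4.3.3), with moderated F-tests and contrasts and Benjamini-Hochberg adjustment over all 15310 probe sets with 1 symbol, and a call means an adjusted p of at most 0.05. The code was tested on simulated data.

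Any keratin could be named. Values of all arrays were given for the 2 brightest members of each role group (4 of the simple group in liver) and for the 3 largest called rises and falls from F16 to P4 and from P4 to P90. Of each companion list the 4 brightest genes could be named, and each member where at most 5 passed. Alternatives were arrays left out, array weights, a replicate block, other normalisation and centring, bright probe sets only, other priors, an unadjusted threshold, 5 time points and the mean of a gene's probe sets. The alternatives that leave out the arrays standing apart were chosen after seeing the data.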

Additional observations from a re-analysis of the deposited data

Results flagged for a closer look

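A single array stood far from the rest of its group in 9 of 192 groups of arrays tested, and chance gives about 1 in 20. In muscle, Krt10 read 13.28 in F20 replicate 4 (the others 13.55 to 13.64) and 13.51 in F22 replicate 5 (the others 13.80 to 13.85), and Krt1 read 13.33 in F22 replicate 5 (the others 13.71 to 13.76). These are the arrays that also stood apart in the cornified envelope genes. In liver, Krt19 read 8.98 in F20 replicate 3 (the others 8.38 to 8.48), the array with high gut and pancreas markers. The other liver arrays concerned dim members. Krt13 read 6.60 in P1 replicate 1 (the others 6.42 to 6.44), Krt15 read 6.31 in F20 replicate 2 (the others 6.65 to 6.70), and Krt14 read 6.36 in P4 replicate 1 (the others 6.57 to 6.61). Krt42 read 7.01 in P1 replicate 4 (the others 6.92 to 6.93), and Krt85 read 8.17 in F16 replicate 4 (the others 7.91 to 7.94).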

How the results depend on the processing

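Over 572 pairs of a keratin gene and a comparison, 20224 of 20701 alternative values stayed on the same side of the threshold, 259 lost the call, 218 gained it and 0 called values changed sign. Shares of all probe sets were not taken at these settings. Counts of keratin probe sets moved by over 1.5 times as follows, and the cause was not tested unless fewer samples or genes give it. With 5 time points, 2 fell at P1 against F22 in muscle, and in liver 17 changed over time and 1 fell at P4 against P1. At an unadjusted p of at most 0.05, muscle had 9 lower at F20-F18, 7 higher at F22-F20 and 5 lower at P1-F22, and liver had 4 lower at F20-F16, 2 lower at F22-F20, 4 lower at P1-F22 and 8 higher at P4-P1. After a second quantile normalisation, 1 was higher at F22-F20 in muscle, and in liver 1 was lower at F20-F16, 3 at P90-P4 and 2 at P90-F16. With array weights, muscle had 3 lower at F20-F18, 6 higher at F22-F20 and 4 lower at P1-F22, and liver had 2 lower at F22-F20 and 4 lower at P1-F22. With bright probe sets only (fewer members), muscle had 15 changed over time, 0 lower at F18-F16, 5 higher at F20-F18, 1 higher and 3 lower at F22-F20, 0 higher at P1-F22, 5 higher and 3 lower at P4-P1 and 10 higher at P4-F16. Liver then had 10 changed over time, 0 lower at F20-F16, 1 higher at P1-F22, 1 higher and 1 lower at P4-P1, 6 higher at P90-P4, 7 higher and 0 lower at P4-F16 and 9 higher at P90-F16. With the mean of a gene's probe sets, 3 were lower at P4-F16 in muscle, and 4 higher at F20-F16 and 1 lower at P1-F22 in liver. With the 4 muscle arrays that stood apart left out, 1 was lower at F18-F16, 0 at F20-F18 and 3 at P1-F22. With the 3 muscle arrays with single high keratins left out, 1 was higher at F22-F20 and 0 lower at P1-F22. With the 2 such liver arrays left out, 1 was lower at F20-F16, 2 at F22-F20 and 5 at P1-F22. With each array centred on its median, liver had 1 lower at F20-F16, 2 lower at F22-F20, and 22 higher and 3 lower at P90-P4.

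With single arrays left out, members changed over time numbered 39 to 42 in muscle and 31 to 37 in liver. In muscle 1 to 2 were lower at F18-F16, 2 to 7 lower at F20-F18, 1 to 4 higher at F22-F20, 0 to 2 lower at P1-F22 and 2 to 8 lower at P4-P1. In liver 0 to 2 were lower at F20-F16, 1 to 2 at F22-F20, 2 to 5 at P1-F22 and 1 to 2 at P4-F16, 1 to 4 were higher and 0 to 2 lower at P4-P1, and 8 (without P4 replicate 1; 9 without P90 replicate 2) to 18 were higher and 3 to 5 lower at P90-P4. Deviations of same-numbered arrays had mean correlations of -0.05 to 0.04 in muscle and -0.02 to 0.03 in liver. Single pairs of arrays ranged from -0.40 to 0.36 in muscle and from -0.20 to 0.28 in liver. Whether same-numbered samples share a litter was not tested. With the replicate number as a block, 42 members changed over time in muscle and 32 in liver.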
